A study of Rattus norvegicus with 6 samples.

Results

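Genes of the major histocompatibility complex (MHC), of complement and of immune signalling were followed as a set in the rat lateral ventricular choroid plexus, the tissue that makes cerebrospinal fluid, at embryonic day 15 (E15) and in the adult. The set was drawn by gene symbol from the authors' table of genes that differed between these ages: RT1 genes, B2m, Cd74, Tap1 and Tap2 for the MHC, complement factors, interleukins, chemokines, the tumour necrosis factor (TNF) family, Toll-like receptors, NF-kB, interferon, STAT and SOCS genes, and a small number of macrophage and Fc receptor genes. It held 148 genes, out of 10653 genes in that table and 29479 gene identifiers counted in all. The table lists only genes that the authors had called different in the same 6 libraries, so the members were chosen by the E15 and adult counts themselves. All values of the members are therefore given as a description. Their calls in the fit below come from the same libraries and are no independent test. A gene that is not named below may simply not have been in the table.

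Both ages were untreated Sprague-Dawley rats, and the adults were 6 weeks old. Each sample was RNA from a pool of the left and right plexuses of 10 animals, with 3 pools at each age and 1 library per pool, so the spread given below is that between pools and not between single animals. The series describes the tissue as epithelial cells, while by the methods the plexus was taken whole, with its stroma and blood vessels. In such bulk RNA, fewer cells of a type and less RNA per cell cannot be told apart.

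The libraries held between 17875089 and 19204440 counts. Counts were scaled by the TMM method of edgeR to a common library size, and these scaled values are called normalized counts, while pool by pool values are the raw counts of replicates 1, 2 and 3. A log2 fold change above 0 means more at E15. E15 replicate 1 stood apart from its group, as chi-square statistics of its counts, divided by their degrees of freedom, were 56.8 and 47.5 when set against E15 replicates 2 and 3, and 5.43 between these. Markers of choroid plexus epithelium were abundant at both ages: 8 of 11 listed genes could be named, none of them at 0, and all 8 were higher in the adult. They were named only through the authors' table, so markers not called different there are missing. Their summed normalized count was 474714 to 568044 at E15, and 4135915 to 5067465 in the adult. Most of it was Ttr, with 389713 to 480714 at E15 and 3639575 to 4584666 in the adult. Folds of the 8 genes ran from 2.75 for Aqp1 to 45.1 for Kl. Reads without a unique place in the genome had been discarded, so counts of near-identical copies (RT1, Oas1, Mx, Ifitm, Lyz2 and Ccl genes, Tlr1 and Tlr6) are uncertain.

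MHC class I molecules, a heavy chain paired with beta-2 microglobulin, carry peptides from the cytosol to the surface of nearly all nucleated cells, after the transporter made of Tap1 and Tap2 has moved the peptides into the endoplasmic reticulum. MHC class II molecules, an alpha and a beta chain guided by the invariant chain Cd74, are typical of professional antigen-presenting cells and present peptides taken up from outside. Complement is a cascade of plasma proteins that tags and lyses targets, and interferons, acting through JAK kinases and STAT factors, induce antiviral genes and much of the class I pathway. The choroid plexus stands between blood and cerebrospinal fluid, and macrophages lie on its epithelium and in its stroma.

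Of the 148 members, 146 had more than 10 counts in all and entered the fit (the quasi-likelihood test of edgeR on 16643 genes, where a call is a Benjamini-Hochberg adjusted p under 0.05). In the fit, 97 were called higher in the adult and 35 higher at E15, and 14 were not called. Over all genes tested the share called was 64.0%, made up of 29.3% higher in the adult and 34.7% higher at E15. Since the authors' table supplied the members, nothing is read from the share of them that was called. Pools of the 2 ages did not overlap for 99 members higher in the adult and 38 higher at E15, where all genes tested gave 32.1% and 38.0%. The median log2 fold change was -1.60 over the members, against 0.14 over all genes tested and 0.74 over the authors' table. A fitted change of more than 10-fold was seen for 41 members higher in the adult (28.1% of those tested) and 9 higher at E15 (6.16%). Genes at 0 counts in all pools of an age were held here to the bound that 3 counts over these pools give. All genes tested held 503 such genes higher in the adult (3.02%) and 1314 higher at E15 (7.90%). In the authors' table the shares were 4.79% and 12.5%.

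These numbers moved with the scaling. With total counts alone the median over all genes became 0.94, the share of all calls that were higher at E15 went from 54.2% to 81%, and the members called were 41 at E15 and 75 in the adult. With the 10 most abundant genes left out of the totals, the median was 0.60, the share 71.6%, and the members called 39 and 85. The median over the members was -0.80 with total counts alone and -1.14 without the 10 genes, so every ratio below depends on the scaling in size. As examples, the log2 fold change of B2m went from -4.37 to -3.57 with total counts alone, and that of Tap2 from -5.59 to -4.78. Directions of 6 members turned under total counts alone, and each is named where it is described.

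The roles within the set differed in direction. All 8 class II genes were higher in the adult, as were 20 of 22 class I genes, 20 of 22 interferon genes and 7 of 9 STAT and SOCS genes. Medians of the log2 fold change were -5.71 for class II, -3.58 for class I, -2.52 for interferon genes (-2.49 with Oas1k at its bound), -2.34 for 8 complement genes, -1.46 for 14 chemokine genes, -1.27 for 7 myeloid and Fc receptor genes, -1.27 for STAT and SOCS genes and -1.16 for 28 interleukin genes. Toll-like receptor and NF-kB genes (15) had a median of 0.60, but 8 of them were higher at E15 and 7 in the adult. The 8 include Nfkbil2 (4.26), by its RefSeq name a gene of DNA replication repair (below), so the sign of this median is not firm. The TNF family (13) had a median of 1.90. For this family 9 of 13 genes were higher at E15, the reverse of the class II genes.

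**Figure D1:**
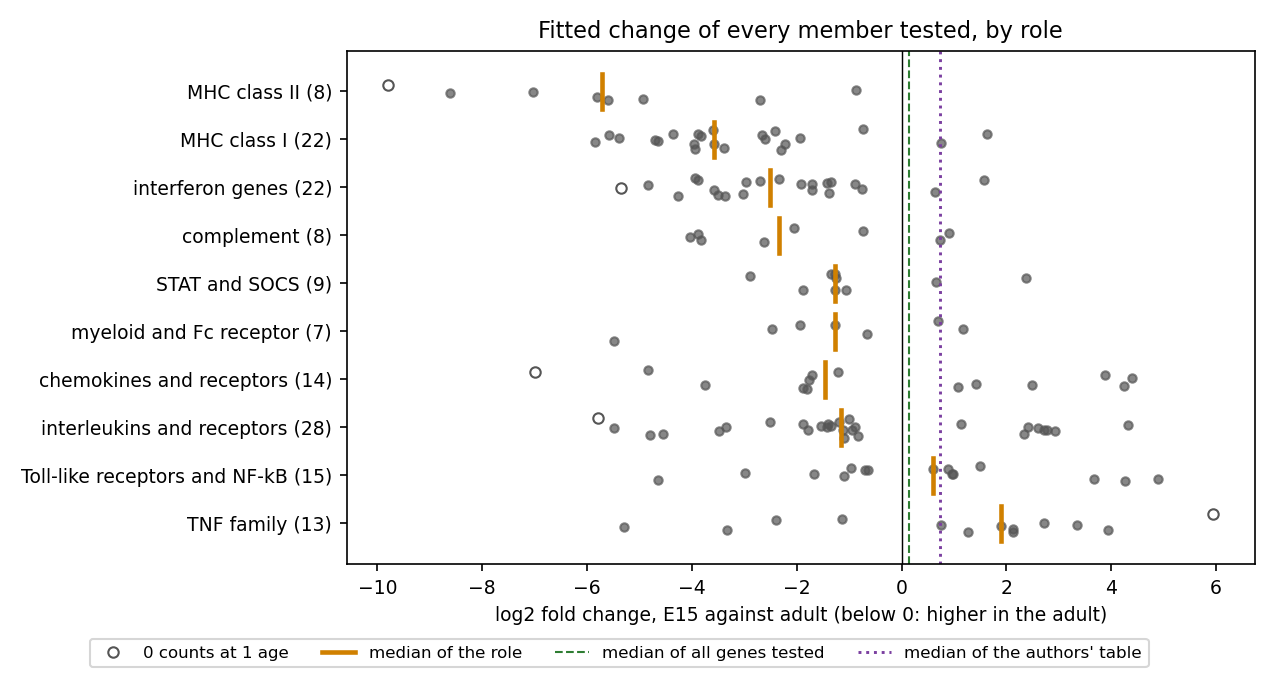
Fitted log2 fold change (x axis, E15 against adult, below 0 is higher in the adult) of the 146 members tested, by role, with the number of genes in brackets. Points are genes, open points are genes with 0 counts in all pools of 1 age, whose fitted change is no measure of size, bars are medians, and the lines mark the medians of all genes tested (0.14) and of the authors' table (0.74). Class II genes lie furthest to the left (median -5.71) and the TNF family furthest to the right (1.90).

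Of the 7 class II chains, the 4 of RT1-B and RT1-D described first had few or no counts at E15 and many more in every adult pool. RT1-Da (ENSRNOG00000032844), the alpha chain of the rat class II molecule RT1-D, had 0, 2 and 3 counts at E15 against 338, 410 and 502 in the adult. Its partner beta chain RT1-Db1 had 0, 4 and 1 at E15 against 155, 119 and 138 in the adult. RT1-Ba, the alpha chain of RT1-B, had 12, 0 and 1 at E15 against 123, 136 and 183 in the adult. Every adult pool exceeded every E15 pool for these 3 genes, and among the E15 pools only replicate 1 had more than 4 counts of any of them. RT1-Bb, the beta chain of RT1-B, had 0 counts in all E15 pools and 90, 78 and 76 in the adult. The ratios of normalized counts were 430 for RT1-Da, 142 for RT1-Db1, 58.5 for RT1-Ba and at least 140 for RT1-Bb, held to 3 counts over the E15 pools.

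The size of these ratios hung on single E15 pools, but their direction did not. Without E15 replicate 1 the ratio of RT1-Ba was 516 (exact 95% interval 92.1 to 20428, for counting error only, as are all such intervals here). Without E15 replicate 3 that of RT1-Da was 715 (197 to 5907), and without E15 replicate 2 that of RT1-Db1 was 467 (83.3 to 18476). The bound for RT1-Bb was 92.1 without E15 replicate 2, with 3 counts then set against 2 pools. All 4 chains are subunits of surface class II molecules, so the pools of the adult carried RNA for both chains of RT1-B and RT1-D.

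Cd74 (ENSRNOG00000018735), the invariant chain, had 35, 37 and 29 counts at E15 against 868, 1010 and 1010 in the adult, normalized means of 26.6 ± 3.37 and 1309 ± 79.1 (SD, n = 3), 49.2-fold higher in the adult. Unlike the chains it guides, Cd74 was thus present in each E15 pool. RT1-DMb, a chain of the molecule that loads peptide onto class II, differed least, with 52, 54 and 61 counts at E15 against 56, 55 and 66 in the adult, 1.82-fold higher in the adult, and its call was lost without E15 replicate 2 (1.71 to 1.93-fold over all pools left out in turn). RT1-DOa, a chain of the modulator of that loading, had 0, 1 and 5 against 5, 4 and 15 counts, a ratio of 6.89. Its call was lost without E15 replicate 1 or 2 or adult replicate 1 or 3, and the ratio became 27.4 (4.47 to 1128) without E15 replicate 3. RT1-Db2, another class II beta chain next to RT1-Db1, had 1 count at E15 against 7, 12 and 7 in the adult, a ratio of 44.8 (7.35 to 1835), or at least 9.91 without E15 replicate 3. Adult replicate 3 was highest for 4 of the 6 class II genes with a mean above 20 in the adult.

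Class II promoters are known for the X and Y boxes, short elements read by the RFX and NF-Y factors that recruit the class II transactivator. Promoters of 5 class II chains are shown with these boxes. In 3 of them the letters searched for both boxes were found, and in 2 only those of the Y box. The X box was searched as AG, any 2 bases, AC, any base and GATG, and the Y box as CTGATTGG, on both strands, in RefSeq promoter windows of 300 bases (250 before and 50 after the start) of the GRCr8 assembly, matched by symbol. The stretches below end at the last base before the start and run 5′ to 3′ along the gene, with X and Y boxes in capitals. They lie at chr20:4515270-4515414 (RT1-Da, plus strand), chr20:4560163-4560307 (RT1-Db1, minus strand), chr20:4604119-4604263 (RT1-Bb, minus strand), chr20:4576912-4577056 (RT1-Ba, plus strand) and chr20:4758424-4758568 (RT1-DOa, minus strand).
RT1-Da: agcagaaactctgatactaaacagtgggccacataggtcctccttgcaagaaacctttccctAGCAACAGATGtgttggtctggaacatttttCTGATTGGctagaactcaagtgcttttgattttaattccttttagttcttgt
RT1-Db1: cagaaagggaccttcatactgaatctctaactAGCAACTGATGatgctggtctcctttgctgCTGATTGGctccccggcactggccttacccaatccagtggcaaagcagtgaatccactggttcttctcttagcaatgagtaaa
RT1-Bb: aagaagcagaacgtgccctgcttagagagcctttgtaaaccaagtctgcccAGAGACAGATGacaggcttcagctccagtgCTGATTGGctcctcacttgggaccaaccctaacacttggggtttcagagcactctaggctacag
RT1-Ba: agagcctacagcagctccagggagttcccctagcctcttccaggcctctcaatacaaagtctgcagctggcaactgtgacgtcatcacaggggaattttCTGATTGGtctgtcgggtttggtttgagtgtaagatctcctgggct
RT1-DOa: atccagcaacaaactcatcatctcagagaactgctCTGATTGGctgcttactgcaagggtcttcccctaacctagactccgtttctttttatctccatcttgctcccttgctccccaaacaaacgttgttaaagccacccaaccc
Y boxes were found in all 6 class II chains that had a window (these and RT1-Db2), against 3.50% of all 33469 windows, and X boxes in 4 of the 6, against 0.950%. Each chain was searched in the first window listed for it, while the share of all windows takes every window listed. In RT1-Da, RT1-Db1 and RT1-Bb the X box precedes the Y box on the same strand. RT1-Ba and RT1-DOa held a Y box, while the X box letters searched are not in their windows. An X box spelled in other letters would have been missed, so these 2 promoters are not shown to lack one. Cd74 had neither in its window. These matches describe letters in a reference sequence, and the chains are related genes that share sequence.

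MHC class I genes were expressed at E15 and higher in the adult. B2m (ENSRNOG00000017123), beta-2 microglobulin, the light chain of every classical class I molecule, had 1451, 1376 and 1375 counts at E15 against 15529, 17127 and 17986 in the adult. Its normalized means were 1109 ± 69.1 and 22977 ± 1500 (SD, n = 3), 20.8-fold higher in the adult, with all pools of an age close together. Tap1 had 95, 110 and 95 counts at E15 against 856, 1002 and 847 in the adult, 15.5-fold higher. Tap2, its partner in the peptide transporter, had 44, 57 and 56 at E15 against 1545, 1498 and 1348 in the adult, 48.2-fold higher. No pool of one age reached the other for any of these 3, and with 1 library left out the fold of B2m stayed at 20 or more.

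Class I heavy chains made up 19 members, of which 16 were called higher in the adult and 1 at E15, where all genes tested gave 29.3% and 34.7%. RT1-A2, a classical heavy chain, had 13, 21 and 35 counts at E15 against 599, 862 and 856 in the adult, 57.8-fold higher. RT1-A1 had 24, 61 and 63 against 246, 361 and 291 counts, 10.4-fold higher in the adult. In both genes the E15 pools varied more than the adult pools for their level, and all remained below the lowest adult pool. Genes of the RT1-CE cluster, class I genes on the far side of the class II region, were all higher in the adult. RT1-CE5 had 67, 102 and 101 counts at E15 against 546, 695 and 626 in the adult (11.9-fold), and RT1-CE10 had 14, 20 and 25 against 250, 317 and 303 (25.4-fold). The others were RT1-CE7 (14.3-fold), RT1-CE4 (12.1-fold), RT1-CE1 (6.08-fold), RT1-CE3 (15.1-fold, or 24.1 without E15 replicate 2) and RT1-CE2 (46.5-fold on 1, 0 and 4 counts at E15, or 154 without E15 replicate 3, with an interval of 27.2 to 6141).

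Nonclassical class I genes are relatives with restricted peptides or unknown ligands. RT1-M3-1, the rat form of the molecule that presents formylated peptides, had 157, 184 and 198 counts at E15 against 541, 451 and 555 in the adult, 4.94-fold higher. RT1-N1 was 4.66-fold and RT1-S3 3.82-fold higher in the adult, and both were present in every E15 pool. Going the other way, RT1-N3 had 226, 250 and 212 counts at E15 against 61, 79 and 98 in the adult, 1.68-fold higher at E15, and its call was lost without E15 replicate 2 or adult replicate 1 or 2, with folds between 1.53 and 1.91. RT1-T24-1 had 13, 18 and 35 at E15 against 7, 0 and 5 in the adult, without a call (ratio 3.19). RT1-M6-2 was not called either, with 26, 25 and 38 against 18, 42 and 27 counts, and its fitted direction turned from higher in the adult (-0.74) to higher at E15 (0.06) when totals alone were used for scaling.

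The remaining class I genes were sparse. RT1-O1 had 3, 4 and 3 counts against 12, 11 and 9 (5.51-fold), and RT1-M1-2 3, 3 and 2 against 14, 12 and 5 (6.67-fold). RT1-M1-4 had 1 count at E15 against 5, 2 and 6 in the adult, a ratio of 22.4 (3.36 to 951) whose call was lost without E15 replicate 3, and at least 4.91 without E15 replicate 2. RT1-T18 had 1 count at E15 against 2, 2 and 18 in the adult, so that adult replicate 3 held most of its counts (ratio 37.9, interval 6.12 to 1563, or at least 8.38 without E15 replicate 3).

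**Figure D2:**
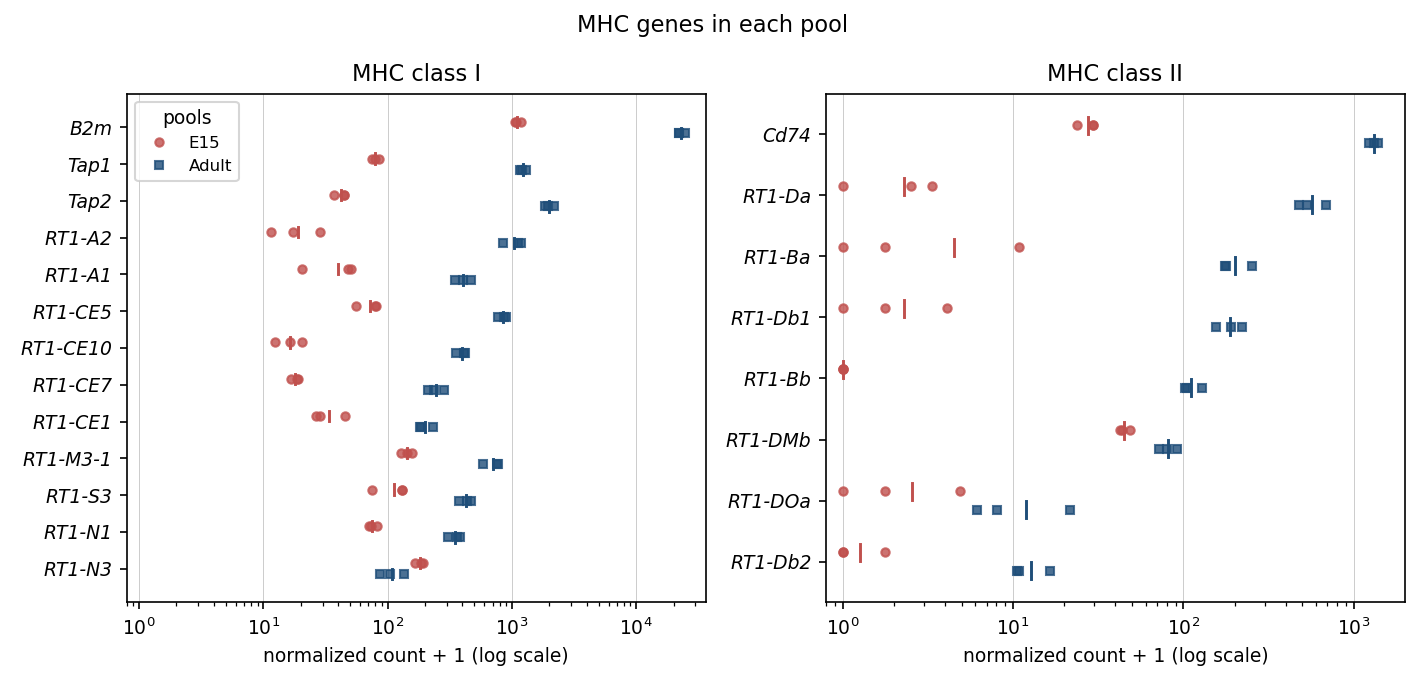
Normalized count plus 1 (x axis, log scale) of 13 class I and 8 class II genes in each of 3 E15 pools (circles) and 3 adult pools (squares), with a vertical bar at the mean of an age. Adult pools lie to the right of E15 pools for all but RT1-N3, where E15 pools lie to the right, and 6 class II chains have at least 1 E15 pool at 0.

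Other genes of class I peptide loading were also higher in the adult. Of a list of 15 loading genes, 11 could be named, 3 of them members. All 11 were called higher in the adult, as were 29.3% of all genes tested and 4379 of the 10496 tested genes in the authors' table. The aminopeptidase Erap1, which trims peptides in the endoplasmic reticulum, went from a normalized mean of 990 ± 103 at E15 to 6288 ± 314 (SD, n = 3) in adult pools. The immunoproteasome subunit Psmb9 had 23, 44 and 29 counts at E15 against 329, 347 and 322 in the adult. Tapasin (Tapbp), which bridges the transporter and the heavy chain, and its relative Tapbpl were 3.12-fold and 3-fold higher in the adult. The lectin chaperone Calr, a general protein of the endoplasmic reticulum, was 2.11-fold higher, and the disulfide isomerase Pdia3 2.96-fold. These genes were named through the same table as the members, so they were selected in the same way. On the class II side, Rfx5, a subunit of the X box factor, had 823, 837 and 806 counts at E15 against 795, 838 and 811 in the adult, 1.71-fold higher in the adult after TMM scaling but turned to E15 (0.04) with totals alone.

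Complement genes split between the classical start, the alternative pathway and the terminal complex. C1r, a protease of the C1 complex that starts the classical pathway, had 897, 1316 and 1188 counts at E15 against 2593, 2765 and 2871 in the adult, 4.17-fold higher. Cfb, the protease subunit of the alternative convertase, had 91, 116 and 136 at E15 against 974, 967 and 1299 in the adult, 16.3-fold higher. Neither gene had overlapping ages. C7, a component of the membrane attack complex, had 53, 59 and 40 against 385, 581 and 354 counts, 15-fold higher in the adult. C6, which precedes C7 in that complex, had 0, 0 and 5 against 5, 21 and 19 counts, a ratio of 15.5 (10.2 without E15 replicate 2) in which all E15 counts came from replicate 3.

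C1qa and C1qb encode 2 chains of C1q, the recognition protein of the classical pathway, which macrophages make, and they went opposite ways. C1qa had 183, 229 and 249 counts at E15 against 198, 224 and 219 in the adult, 1.67-fold higher in the adult after TMM scaling but turned to E15 (log2 fold change 0.06 in place of -0.74) with totals alone. C1qb had 244, 486 and 368 counts at E15 against 96, 142 and 143 in the adult, 1.67-fold higher at E15. Its E15 pools were widely spread, and the call was lost without E15 replicate 2 or 3 or adult replicate 1 or 2 (1.42 to 1.92-fold). Cfd, the protease that activates Cfb, had 18, 45 and 47 counts against 12, 17 and 5, with overlapping ages and no call.

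Of a list of 34 complement genes, 16 could be named, 8 of them members, with 8 called higher in the adult, 6 at E15 and 2 not called. They were named through the authors' table, where 4379 of 10496 tested genes were called higher in the adult and 5276 at E15. Over all genes tested the shares were 29.3% and 34.7%. The genes beyond the members went both ways. Cd59, a membrane inhibitor of the terminal complex, had 316, 446 and 435 counts at E15 against 1915, 1869 and 2241 in the adult, and Serping1, the inhibitor of C1, was 1.58-fold higher in the adult, a call lost without adult replicate 2 and a direction turned to E15 (0.15) with totals alone. Cd55, an inhibitor of the convertases, had 239, 144 and 166 counts at E15 against 14, 13 and 10 in the adult. Masp1, a protease of the lectin pathway, had 336, 290 and 360 at E15 against 18, 31 and 18 in the adult, and Cfp, properdin, was also higher at E15, with 220, 296 and 262 against 66, 37 and 20 counts.

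Myeloid genes did not move together. Csf1r, the receptor for the macrophage growth factors CSF1 and IL-34, had 1104, 1476 and 1252 counts at E15 against 216, 410 and 360 in the adult, 2.26-fold higher at E15. Lyz2, lysozyme, had 37, 54 and 40 at E15 against 931, 1148 and 1352 in the adult, 45.1-fold higher in the adult. Cd14, the co-receptor for bacterial lipopolysaccharide, had 115, 114 and 99 against 426, 373 and 259, 5.55-fold higher in the adult. Ptprc, the pan-leukocyte antigen CD45, had 116, 81 and 63 at E15 against 67, 86 and 88 in the adult, overlapped between the ages and was not called, and its fitted direction turned from the adult (-0.66) to E15 (0.14) with totals alone. Among Fc receptors, Fcgr3a, the low-affinity receptor for IgG, was 3.8-fold higher in the adult, while Fcgr1a, the high-affinity one, had 78, 82 and 74 counts at E15 against 17, 41 and 26 in the adult without a call. Fcgrt, the neonatal Fc receptor, which carries IgG across epithelia and is not a myeloid gene as such, had 1178, 1693 and 1629 at E15 against 2064, 2212 and 2028 in the adult, 2.41-fold higher.

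The markers of cell types that could carry these genes are given beside them. They too could be named only through the authors' table, so markers that the authors had not called different are missing. Sums and directions below are therefore of genes that the contrast itself chose. Of the 10496 tested genes in that table, 5276 were called higher at E15 and 4379 in the adult. Of 29 macrophage markers 12 could be named, 9 of them members, with none at 0, 4 called higher at E15, 5 in the adult and 3 not called. Their summed normalized count was 2706 to 3064 at E15, and 2954 to 3575 in the adult. Lyz2 made up a large part of the adult sum, and without it, a choice made after seeing the data, the sums were 2675 to 3023 at E15 and 1635 to 1921 in adult pools, so that the order of the ages turned. Lyve1, a marker of perivascular macrophages and lymphatic vessels that is no member, went from 1329, 1235 and 1082 counts at E15 to 18, 18 and 8. It was kept in both sums, where it made up 849 to 1088 normalized counts at E15 and 11 to 25.5 in the adult. The order of the ages thus depends on which genes are left out, and sums without Lyve1 were not taken. Of 8 dendritic cell markers 5 could be named, with sums of 71.4 to 86.2 at E15, and 935 to 1698 in the adult. Nearly all of the adult sum was Flt3 (930, 705 and 1209 counts, against 17, 3 and 8 at E15), and without it the sums were 59.7 to 83.9 at E15 and 19.5 to 37.1 in the adult. Clec9a (2.24-fold) and Batf3 (4.15-fold) were called higher at E15, both calls lost without E15 replicate 2 or 3, and that of Clec9a also without E15 replicate 1 or adult replicate 1 or 2, while Ccr7 was not called. Of 10 T cell markers 6 could be named, with sums of 85.1 to 124 at E15 and 11.7 to 41.1 in the adult. Called higher at E15 were Cd5 (14, 30 and 24 against 0, 0 and 3 counts), Lck (50, 58 and 58 against 12, 9 and 15) and Zap70 (40, 68 and 68 against 4, 0 and 0). The other 3 were too sparse to test. Cd3d (6, 0 and 2 counts in the adult) and Cd3g (7, 0 and 0) had 0 counts in all E15 pools, and Cd247 (0, 5 and 5 at E15) had 0 in all adult pools. Of 9 B and plasma cell markers 2 could be named (15.7 to 37 at E15, 15.1 to 38.2 in the adult), and of 9 neutrophil markers 2 (4.09 to 15.4 and 2.83 to 10.4). Of 9 mast cell markers 2 could be named, Hdc and Kit, which other cells also use (3813 to 3876 and 1001 to 1223). They went opposite ways, with Hdc 5.05-fold higher in the adult and Kit, most of the sum, 10.7-fold higher at E15. Endothelial markers (8 of 10 named) summed to 8997 to 13503 at E15, and 1085 to 1732 in the adult, mesenchymal markers (8 of 8) to 43168 to 57884 and 15985 to 16637, erythroid markers (3 of 7) to 5742 to 7705 and 116 to 232, and proliferation genes (3 of 6) to 5603 to 6242 and 70.1 to 78.3. All named endothelial, erythroid and proliferation genes were higher at E15, but the mesenchymal markers were split, with 6 called higher at E15 and 2 in the adult. These 2 were Dcn (6.54-fold) and Pdgfra (2.84-fold), the latter most of the adult sum. The part that the cell types above have in the members' differences was not tested.

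**Figure D3:**
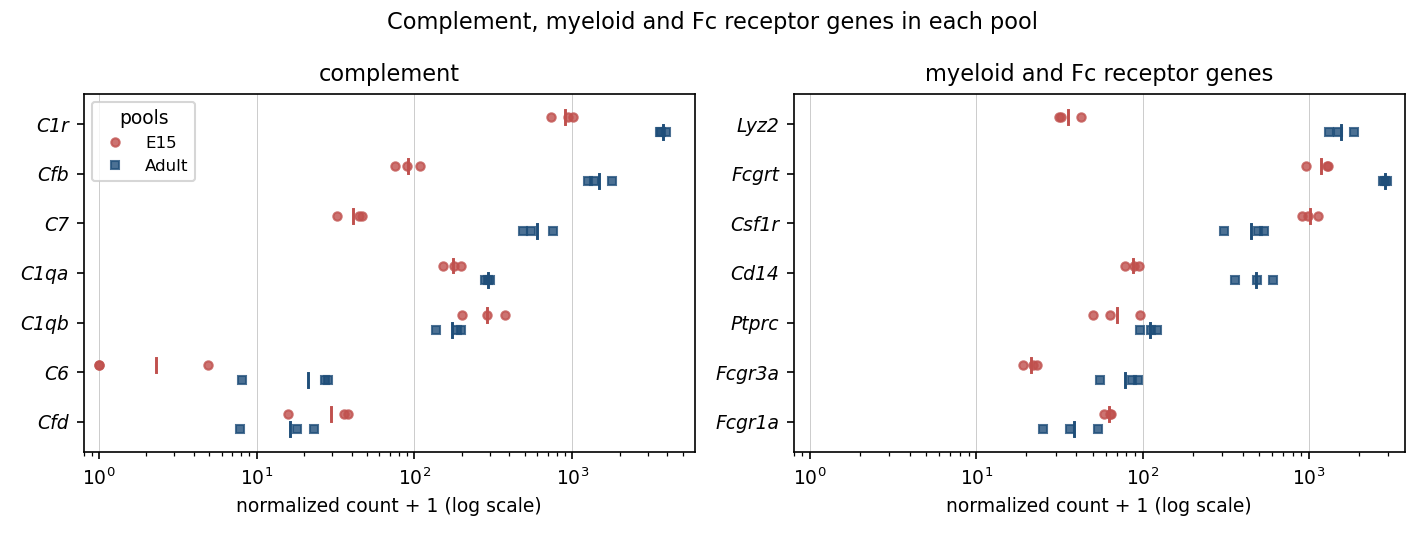
Normalized count plus 1 (x axis, log scale) of 7 complement genes and 7 myeloid and Fc receptor genes in each E15 pool (circles) and adult pool (squares), with a vertical bar at the mean of an age. Cfb and Lyz2 pools of the 2 ages are far apart, C1qa and C1qb lie in opposite order, and the ages overlap for Cfd and Ptprc.

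Interferon genes were higher in the adult with 2 exceptions among 22. Ifi47, an interferon-induced GTPase, had 80, 94 and 104 counts at E15 against 739, 907 and 851 in the adult, 15.5-fold higher. Ifih1, the cytosolic sensor of long double-stranded RNA also called MDA5, had 96, 100 and 109 against 459, 498 and 491, 8.17-fold higher. Ifi35 was 3.78-fold higher, from a normalized mean of 278 ± 52 to 1056 ± 121 (SD, n = 3). These 3 genes had pools of an age within a narrow range, and no E15 pool came near an adult pool. Ifi27, named for its induction by interferon alpha, varied more between E15 pools, with 176, 832 and 475 counts at E15 against 651, 861 and 1262 in the adult, 3.22-fold higher (4.83 without E15 replicate 2). Its neighbour Ifi27l2b was 10.4-fold higher (15.6 without E15 replicate 3).

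Genes of the 2-5A synthetases, which make the second messenger that activates RNase L, were all higher in the adult. Oas1a had 3, 9 and 2 counts at E15 against 58, 54 and 49 in the adult (19.8-fold, or 36.5 without E15 replicate 2), and Oas1b 4, 11 and 4 against 60, 53 and 53 (15-fold, or 23.5 without E15 replicate 2). Oas1i was 12-fold and Oasl2 11.3-fold higher, the latter on 28, 42 and 22 against 212, 168 and 225 counts. Oas1k had 0 counts at E15 against 2, 4 and 5 in the adult, at least 6.31-fold higher (at least 4.15 without E15 replicate 2). Ifit3, which binds viral RNA together with its relatives, had 8, 1 and 1 counts at E15 against 82, 48 and 44 in the adult, a ratio of 30 that was 102 (27.7 to 845) without E15 replicate 1.

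Mx1 and Mx2, GTPases that block virus replication, showed the same pools high and low. Mx1 had 37, 7 and 18 counts at E15 against 102, 59 and 121 in the adult, 7.83-fold higher (13.2 without E15 replicate 1), and Mx2 had 151, 65 and 70 against 304, 193 and 341, 5.04-fold higher. E15 replicate 1 was the highest E15 pool and adult replicate 2 the lowest adult pool for both. Adult replicate 2 was the lowest adult pool for 11 of the 20 interferon genes with a mean above 20 in the adult, and adult replicate 3 the highest for 12. The membrane proteins that restrict virus entry were split, with Ifitm3 2.53-fold higher in the adult and Ifitm1 1.56-fold higher at E15 (334, 462 and 453 against 138, 141 and 186 counts). The call of Ifitm1 was lost without E15 replicate 2 or 3 or adult replicate 1 or 2, with folds of 1.46 to 1.74.

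Interferon regulatory factors are the transcription factors that switch on interferon and its targets. Irf7, the factor that is itself induced by interferon, had 50, 63 and 63 counts at E15 against 195, 213 and 256 in the adult, 6.5-fold higher. Irf1 was 2.67-fold, Irf2 2.6-fold and Irf5 3.23-fold higher in the adult. Irf8, a factor of myeloid cells, had 46, 62 and 54 counts against 47, 64 and 49, 1.7-fold higher in the adult after TMM scaling and turned to E15 (0.04) with totals alone. Its call was lost without any 1 of the E15 replicates or adult replicate 2, at 1.57 to 1.81-fold. Irf4, a factor of lymphocytes and dendritic cells, had 14, 19 and 14 counts against 0, 6 and 3, without a call.

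The interferon-stimulated response element, the site read by interferon-activated STAT and IRF complexes, was searched as GAAA, any 2 bases and GAAA, on both strands in the same promoter windows. The stretches of 60 bases around it, or up to the bases before the start, are shown for genes of both the interferon and the class I group that differed strongly. Capitals mark the element, written as its reverse complement where it lies on the other strand. Positions are chr20:4668630-4668689 (Tap1, minus), chr3:129549155-129549214 (B2m, plus), chr12:41330403-41330462 (Oas1a, plus), chr12:47383302-47383361 (Oasl2, minus), chr3:67683993-67684052 (Ifih1, minus), chr1:205800058-205800117 (Irf7, minus) and chr1:241527257-241527316 (Ifit3, plus), all GRCr8.
Tap1: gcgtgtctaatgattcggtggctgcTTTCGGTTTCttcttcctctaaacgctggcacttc
B2m: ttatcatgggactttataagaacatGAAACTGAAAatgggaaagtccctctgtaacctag
Oas1a: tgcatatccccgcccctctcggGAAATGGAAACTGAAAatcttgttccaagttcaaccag
Oasl2: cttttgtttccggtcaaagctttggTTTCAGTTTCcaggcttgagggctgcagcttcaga
Ifih1: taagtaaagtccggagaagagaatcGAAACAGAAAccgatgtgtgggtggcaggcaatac
Irf7: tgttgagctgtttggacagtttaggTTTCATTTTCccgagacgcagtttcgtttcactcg
Ifit3: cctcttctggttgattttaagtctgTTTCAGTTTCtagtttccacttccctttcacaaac
In Oas1a 2 overlapping copies run together. In Ifih1 an X box match (54 to 44 bases before the start) overlaps the element (59 to 50 bases before it).

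**Figure D4:**
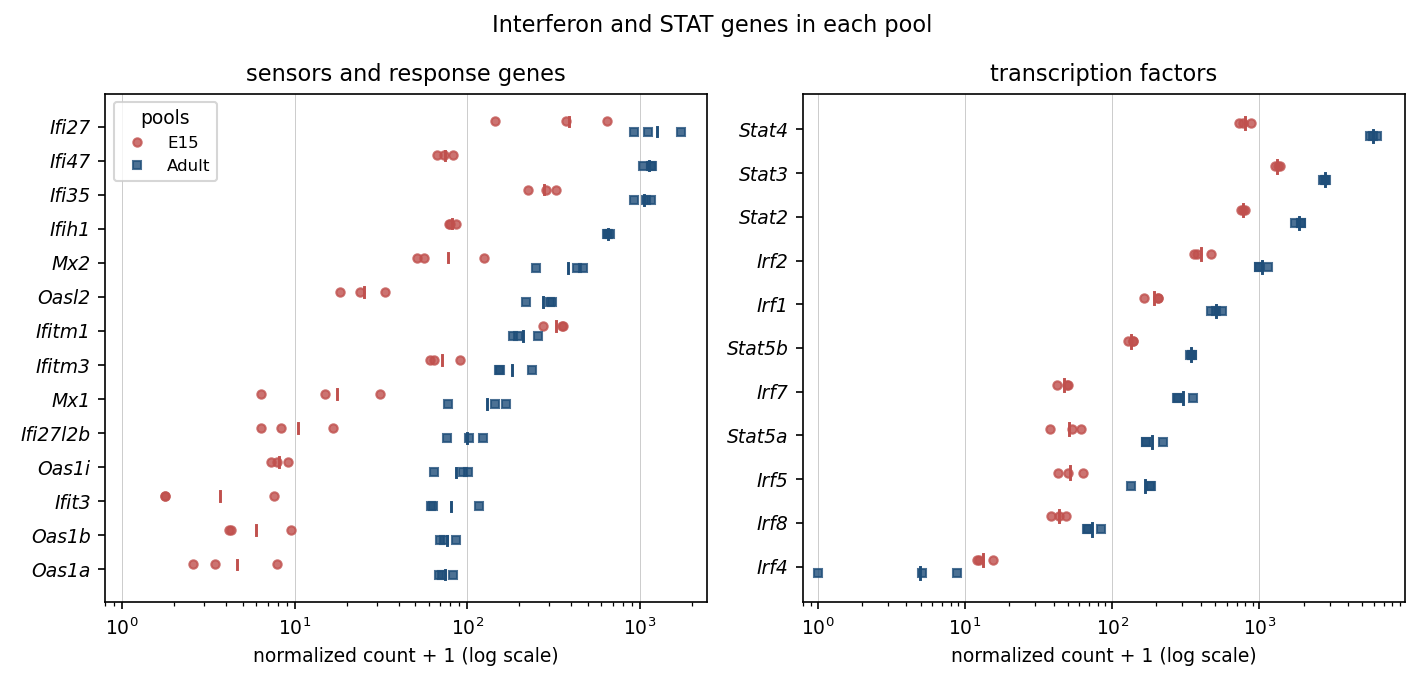
Normalized count plus 1 (x axis, log scale) of 14 interferon-response genes and 11 STAT and IRF factors in each E15 pool (circles) and adult pool (squares), with a vertical bar at the mean of an age. Adult pools lie to the right of E15 pools except for Ifitm1 and Irf4, where E15 pools lie to the right.

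Further genes of interferon signalling, from a list of 40 of which 18 could be named and 11 were members, were all called higher in the adult. So were 29.3% of all genes tested and 4379 of the 10496 tested genes in the authors' table. However, 2 of the 18, Jak1 and Trim25, turned to E15 with totals alone. Ddx58, the cytosolic RNA sensor RIG-I, had 112, 132 and 114 counts at E15 against 1204, 1065 and 1303 in the adult. Its adaptor Mavs was 2.17-fold higher, the ubiquitin-like modifier Isg15 4.49-fold and the antiviral enzyme Rsad2 2.44-fold. Jak1, a kinase of the interferon receptors, was 1.46-fold higher, with 3577, 3847 and 3558 against 2893, 3163 and 3252 counts (0.26 with totals alone). The ubiquitin ligase Trim25, which activates RIG-I, was also 1.46-fold higher (0.25 with totals alone), and its call was lost without E15 replicate 3 or adult replicate 2 or 3. All were named through the same table, as above.

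STAT genes, the factors that JAK kinases activate, were higher in the adult in all 5 cases. Stat4, best known from the response of lymphocytes to IL-12, had 1073, 939 and 992 counts at E15 against 3948, 4533 and 4560 in the adult, 7.47-fold higher. Stat3, used by IL-6 family cytokines and leptin, was 2.09-fold higher (1324 ± 54.4 and 2768 ± 79.8 normalized counts, SD, n = 3), and Stat2, a partner in the type I interferon complex, 2.41-fold. The neighbours Stat5a and Stat5b, used by prolactin and growth hormone, were 3.67-fold and 2.56-fold higher. Pools of an age were close for Stat3 and Stat5b, and none of the 5 had overlapping ages.

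SOCS proteins, which switch JAK-STAT signals off, were divided. Socs5 had 1044, 1126 and 1069 counts at E15 against 1463, 1583 and 1458 in the adult, 2.39-fold higher, and Socs2, an inhibitor of growth hormone signals, was 2.42-fold higher. Socs7 was 1.56-fold higher at E15, with 385, 410 and 430 against 132, 173 and 150 counts. Socs3, the inhibitor induced by STAT3, had 19, 51 and 49 at E15 against 0, 6 and 7 in the adult, 5.32-fold higher at E15, and its call was lost without E15 replicate 2 or 3 (3.61 to 7.71-fold with 1 pool left out). Cish, a relative of the SOCS genes that is no member, had 89, 119 and 144 against 413, 606 and 461 counts. Of the list of 19 STAT, SOCS and JAK genes 11 could be named, 9 of them members, and 9 were called higher in the adult (with Jak1 turned as above) and 2 at E15. They were named through the authors' table, where 4379 of 10496 tested genes were called higher in the adult and 5276 at E15. Over all genes tested the shares were 29.3% and 34.7%.

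Toll-like receptors, which sense microbial and nucleic acid patterns, differed in direction by gene. Tlr3, the endosomal receptor for double-stranded RNA, had 140, 107 and 124 counts at E15 against 1748, 1820 and 1842 in the adult, 25.1-fold higher. Tlr6, a partner of TLR2 for lipopeptides, had 19, 17 and 30 against 102, 96 and 107, 7.96-fold higher in the adult. Both had no overlap between ages. Tlr4, the lipopolysaccharide receptor, had 153, 146 and 147 at E15 against 32, 60 and 39 in the adult, 1.98-fold higher at E15, opposite to its co-receptor Cd14. Tlr5, the flagellin receptor, had 52, 67 and 50 counts at E15 against 2, 0 and 1 in the adult, a ratio of 32.7 (11 to 160), or 66.7 (11.8 to 2650) without adult replicate 1.

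Sparse receptors complete the family. Tlr7, for single-stranded RNA, was 1.94-fold higher at E15 on 90, 83 and 57 against 17, 29 and 23 counts, and its call was lost without E15 replicate 1 or 2 or adult replicate 1 or 3 (1.74 to 2.19-fold). Tlr12 had 3, 12 and 13 at E15 and 1 count in adult replicate 1 (16.3, interval 2.69 to 665). That call was lost without E15 replicate 2 or 3 or adult replicate 2 or 3, and the ratio was at least 3.68 without adult replicate 1. Tlr1 had 12, 8 and 12 against 7, 9 and 24 counts and no call. Myd88, the adaptor of all these receptors but Tlr3, was 3.21-fold higher in the adult, with 180, 227 and 230 against 358, 438 and 390 counts.

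NF-kB genes encode the subunits and inhibitors of a factor downstream of these receptors. The subunit Nfkb1 had 1061, 1093 and 1040 counts at E15 against 989, 1144 and 868 in the adult, 1.62-fold higher in the adult after TMM scaling but turned to E15 (0.11) with totals alone. Nfkb2, the subunit of the noncanonical route, had 344, 519 and 475 against 88, 109 and 80, 2.81-fold higher at E15. The inhibitor Nfkbia was 1.97-fold higher in the adult, and Nfkbib 1.56-fold, the latter turned to E15 (0.16) with totals alone. The inhibitor Nfkbie was 1.52-fold higher at E15, the smallest ratio among the members, and Nfkbil1 1.88-fold, with overlapping pools (135, 297 and 269 against 88, 77 and 52 counts). Their calls were lost without E15 replicate 2 or 3 or adult replicate 2, for Nfkbie also without adult replicate 1 and for Nfkbil1 also without adult replicate 3, with folds of 1.4 to 1.62 and 1.64 to 2.23. Nfkbil2 had 224, 327 and 321 counts at E15 against 13, 11 and 2 in the adult, 19.5-fold higher at E15. RefSeq calls this gene Tonsl, a protein of DNA replication repair, and the proliferation genes above were also higher at E15, whose part in its ratio was not tested.

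Of the list of 41 Toll-like receptor and NF-kB genes 27 could be named, 18 of them members, with 19 called higher in the adult, 7 at E15 and 1 not called. They were named through the authors' table, where 4379 of 10496 tested genes were called higher in the adult and 5276 at E15. Over all genes tested the shares were 29.3% and 34.7%. Beyond the members, the kinases Irak1, Irak2 and Irak4, which act below MyD88, were 2.2-fold, 9.25-fold and 3-fold higher in the adult. Chuk, a kinase that acts on the inhibitors, had 1892, 1452 and 1353 counts at E15 against 3406, 3443 and 3547 in the adult, and its scaffold Ikbkg was 1.66-fold higher at E15. Its partner kinase Ikbkb was 1.57-fold higher in the adult and turned to E15 (0.15) with totals alone.

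Of 8 chemokine ligands tested 6 were higher in the adult, and of 6 receptors 4 were higher at E15. Cxcl16, a membrane-bound ligand that also takes up oxidized lipid, had 159, 149 and 123 counts at E15 against 2407, 2414 and 2300 in the adult, 28.4-fold higher. Cxcr7, a scavenger receptor for CXCL12, had 881, 1048 and 1098 against 2069, 2053 and 2040, 3.5-fold higher in the adult. Cx3cl1, fractalkine, was 3.4-fold higher in the adult and Cxcl17, a ligand of mucosal tissues, 3.26-fold. These 4 had at least 58 counts in every pool and no overlap between ages. Cxcr4, the signalling receptor for CXCL12, went the other way from Cxcr7, with 692, 646 and 566 counts at E15 against 13, 31 and 9 in the adult, 20.9-fold higher at E15 (32.7 without adult replicate 2).

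Among less abundant chemokine genes, Cx3cr1, the fractalkine receptor of macrophages, was 2.33-fold higher in the adult, like its ligand, but rested on adult replicate 2 (35, 51 and 50 against 31, 89 and 64 counts, and 1.85-fold without it, with the call lost). Ccl2, the monocyte attractant, had 14, 12 and 18 against 14, 19 and 62 counts, 3.72-fold higher in the adult and 1.93-fold without adult replicate 3, where the call was lost, as it was without E15 replicate 2. Ccl5, an attractant of T cells and monocytes, had 0 counts at E15 against 12, 15 and 8 in the adult, at least 20.1-fold higher (13.2 without E15 replicate 2), and Cxcl9, induced by interferon gamma, had 2 counts at E15 against 7, 8 and 4 in the adult (16.4, interval 3.95 to 145, or at least 7.17 without E15 replicate 2). Higher at E15 were Ccl24 (25, 41 and 42 against 3, 0 and 0 counts, 20.9, interval 6.97 to 103, or 13.6, interval 4.53 to 67, without adult replicate 2) and Ccl3 (13, 21 and 26 against 0, 3 and 3, 5.81-fold). The call of Ccl3 was lost without E15 replicate 2 or 3, and the ratio was 3.95 without adult replicate 1. Cxcr5, the B cell homing receptor, had 11, 12 and 9 counts at E15 and a single adult pool had 1 (18.6, interval 3.1 to 757, or at least 4.03 without adult replicate 2). Ccr7 was not called (13, 32 and 11 against 3, 6 and 3 counts), and Ccl11, with 6 counts in adult replicate 3 and 0 elsewhere, was too sparse to test.

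Of 28 interleukin genes and receptors tested, 20 were higher in the adult. Il18bp, the secreted binding protein that neutralizes IL-18, had 28, 31 and 33 counts at E15 against 470, 505 and 520 in the adult, 28-fold higher, with little spread between pools of an age. Il18 itself, with 9, 29 and 22 against 32, 29 and 32 counts, was 2.67-fold higher and lost its call without E15 replicate 3 (2.13 to 3.4-fold with 1 pool left out). Il18r1, a receptor chain for IL-18, had 0, 2 and 2 counts at E15 against 23, 63 and 31 in the adult, 50.4-fold higher. Il34, the other ligand of the Csf1r receptor, had 9, 32 and 50 at E15 against 168, 215 and 207 in the adult, 11.2-fold higher (16.5 without E15 replicate 3), whereas Csf1r was higher at E15.

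The IL-1 system was expressed at both ages. Il1r1, the signalling receptor, had 435, 463 and 459 counts at E15 against 595, 610 and 608 in the adult, 2.3-fold higher, and its co-receptor Il1rap was 2.11-fold higher (460, 785 and 872 against 813, 843 and 939). Il1b had 0, 3 and 1 against 12, 9 and 5 counts (11.2-fold, or 29.4, interval 4.84 to 1207, without E15 replicate 2), and the receptor antagonist Il1rn 2, 2 and 1 against 4, 9 and 5 (6.2-fold, with the call lost without E15 replicate 2 or 3 or adult replicate 2, at 4.76 to 7.09-fold). The relatives Il1rl1, the receptor for IL-33, and Il1rl2, the receptor for IL-36, were 5.52-fold and 5.12-fold higher at E15. Il1r2, the decoy receptor, had 4, 25 and 8 counts at E15 against 0, 1 and 2 in the adult (7.16, interval 2.27 to 36.3), and its call was lost without any 1 of 5 pools, all but E15 replicate 1 (3.53, interval 0.953 to 19.5, without E15 replicate 2).

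Other receptor chains were higher in the adult in the more abundant cases. Il10rb, shared by receptors of IL-10 and of type III interferon, had 285, 217 and 214 counts at E15 against 505, 532 and 511 in the adult, 3.72-fold higher. Il11ra1 was 1.92-fold, Il17ra 1.85-fold and Il4ra 1.79-fold higher. Il12rb2, a chain of the IL-12 receptor that signals through STAT4, had 301, 193 and 272 at E15 against 10, 4 and 8 in the adult, 20.2-fold higher at E15, opposite to Stat4. Il2rg, the common gamma chain, had 70, 65 and 50 against 1, 7 and 6, 7.67-fold higher at E15, and Il3ra was 6.19-fold higher at E15, with 40, 108 and 65 against 9, 9 and 2 counts. Il16, a ligand of CD4, was 2.19-fold higher at E15. Ages did not overlap for any of these 8 genes.

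The remaining interleukin genes were sparse. Il17re had 1, 2 and 1 counts at E15 against 21, 30 and 10 in the adult (26.3-fold), Il15 was 2.69-fold higher in the adult (30, 17 and 15 against 19, 39 and 39) and Il7r 2.89-fold (13, 8 and 7 against 26, 9 and 12). Calls of Il15 and Il7r were lost without E15 replicate 2 or 3 or adult replicate 3, for Il15 also without adult replicate 2 (2.36 to 3.54-fold) and for Il7r also without adult replicate 1 (1.9 to 3.66-fold, the lowest without adult replicate 1). Il9 had 0 counts at E15 against 2, 4 and 9 in the adult, at least 8.61-fold higher, or at least 5.14 without adult replicate 3. Il22ra2, a soluble receptor for IL-22, had 19, 12 and 19 at E15 against 0, 0 and 4 in the adult (7.26-fold, or 4.72 without adult replicate 2, with the call lost there and without E15 replicate 3 or adult replicate 1). Il17rb, Il20ra, Il23a and Il27ra were not called, and Il31ra, with 4, 0 and 4 counts at E15 and 0 in every adult pool, was not tested.

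The TNF family had 9 of 13 genes higher at E15. Tnfrsf21, death receptor 6, had 1126, 1423 and 1154 counts at E15 against 36, 66 and 39 in the adult, 15.3-fold higher at E15. Tnfrsf1b, the second TNF receptor, had 236, 256 and 186 against 21, 40 and 30, 4.33-fold higher at E15. Tnfrsf11b, osteoprotegerin, had 86, 89 and 73 against 6, 25 and 8 (3.69-fold, or 6.69 without adult replicate 2), and Tnfrsf11a, the receptor RANK whose ligand osteoprotegerin captures, was 1.68-fold higher at E15, with the call lost without E15 replicate 2 or 3 or adult replicate 1 (1.53 to 1.88-fold). Tnfrsf25, death receptor 3, was 6.8-fold higher at E15 on 25, 31 and 26 against 3, 1 and 3 counts. Tnfaip8l2, a negative regulator of immune receptors, was 2.43-fold higher at E15 on 75, 161 and 140 against 30, 22 and 38 counts, with the call lost without E15 replicate 2 (2.09 to 2.86-fold with 1 pool left out).

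In the adult, Tnfrsf12a, the receptor for TWEAK, was 2.19-fold higher, with 134, 193 and 160 against 206, 230 and 183 counts, and Tnfrsf8, CD30, 5.27-fold, with 16, 32 and 19 against 58, 50 and 97. Tnfsf10, the death ligand TRAIL, had 0, 1 and 4 counts at E15 against 54, 41 and 29 in the adult, 42.7-fold higher (142, interval 25 to 5644, without E15 replicate 3). Other family members had few counts. Tnfrsf26 had 10, 20 and 27 against 0, 0 and 3 (11, interval 3.59 to 55.1), its call lost without E15 replicate 3, and a ratio of 7.18 (2.34 to 35.8) without adult replicate 2. Tnfsf18, the ligand of GITR, had 5, 14 and 10 against 0 in all adult pools, at least 5.61-fold higher (3.65 without adult replicate 2), and its neighbour Tnfsf4, OX40 ligand, 5, 12 and 15 against 4, 0 and 0 without a call. Tnfsf13b, the B cell factor BAFF, was not called (0, 0 and 2 against 4, 0 and 10).

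What the members share in sequence was then counted in their promoter windows. Sequence was not used to choose them, but symbols were, and many symbols name genes by interferon, NF-kB or the MHC. The choice is thus not independent of these elements. Shares by direction are not separate from role either, since 20 of 22 interferon and 20 of 22 class I genes were higher in the adult. RefSeq windows were found for 111 of the 148 members, 84 higher in the adult and 27 at E15. Only the first window listed for a member was searched, so shares of members are per gene and those of all windows per window. The interferon-stimulated response element was in 19 of the 84 (22.6%) and in 2 of the 27 (7.41%, Tnfrsf1b and RT1-N3), against 3.92% of all 33469 windows. It was in 9 of 16 windows of interferon genes, among them all 4 Oas genes, in 5 of 19 of class I (B2m, Tap1, Tap2, RT1-S3 and RT1-N3) and in 0 of 7 of class II, which says only that these letters are not in these windows. The GAS element, read by STAT dimers and searched as TTCNNNGAA, which reads the same on both strands, was in 17 of 111 windows (15.3%, against 8.87% of all), including those of Irf1, Irf8 and Ifi47 but none of the STAT and SOCS genes. In Myd88 it overlaps the response element.

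Y boxes were in 15 of 111 windows (13.5%), 6 of them class II and 6 class I, and X boxes in 6 (5.41%), of which RT1-CE10 and Ifih1 are not class II. A consensus of NF-kB sites was in 21 of 111 (18.9%, against 4.18% of all), with similar shares in members higher in the adult (20.2%) and at E15 (14.8%). It was in 4 of 5 windows of NF-kB genes, Nfkb1 and Nfkbia, higher in the adult, and Nfkb2 and Nfkbie, higher at E15. Windows of related RT1 and Oas genes share sequence and are not separate observations, and a match is letters in a window, not a site in use.

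**Figure D5:**
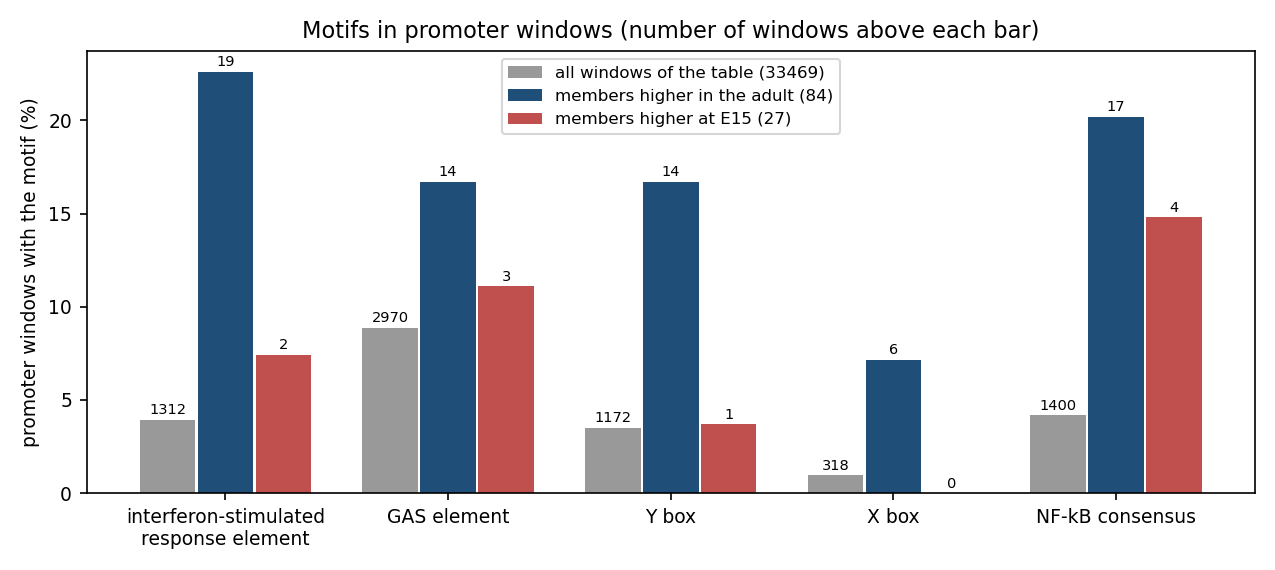
Share of RefSeq promoter windows (y axis, %) that hold each of 5 motifs, for all 33469 windows (grey), 84 members higher in the adult (blue) and 27 members higher at E15 (red), with the number of windows above each bar. The response element is in 19 adult and 2 E15 windows, and the NF-kB consensus in 17 and 4.

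Genes side by side on a chromosome did not always share a direction. In order along GRCr8, with no other protein-coding gene between them unless said, RT1-Da, RT1-Db2, RT1-Db1, RT1-Ba and RT1-Bb, and after 1 other gene Tap2, were all higher in the adult. The RT1-CE run from RT1-CE10 to RT1-CE1 (7 genes) was also higher in the adult throughout. In the interleukin 1 receptor cluster on chromosome 9 the order was Il1r2 (E15), 1 other gene, Il1r1 (adult), Il1rl2 (E15), Il1rl1 (E15) and Il18r1 (adult). Tnfrsf1b and Tnfrsf8 on chromosome 5, Ifitm1 and Ifitm3 on chromosome 1, and Il22ra2 and Il20ra on chromosome 1 were further neighbours of opposite direction, though Il20ra was not called. C1qb and C1qa lay apart by 1 gene.

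Among the E15 pools, replicate 1 was most often the lowest and replicate 2 the highest. Of the 90 members with a mean above 20 at E15, replicate 1 was the lowest pool for 48 and replicate 2 the highest for 42. Of the 105 members with such a mean in the adult, replicate 1 was lowest for 43 and replicate 3 highest for 41. The log2 deviation of a pool from the mean of the other pools of its age was taken on normalized counts with 0.5 added. Its median over these members lay between -0.12 and 0.13. This median shows a shift shared by the members and not the spread of single genes, as opposite deviations cancel in it. By role it reached -0.39, for complement genes in E15 replicate 1. Leaving out 1 library at a time, the number of members called higher in the adult lay between 90 and 97 and that at E15 between 23 (without E15 replicate 2) and 34. Calls were lost without at least 1 library for 24 of the 132 called members, 18 of which had a mean under 100 at the higher age.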

How the data were processed

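RNA-seq counts of 6 libraries, 3 pools of E15 and 3 of adult plexus, were taken as deposited. Per the study's methods, the authors aligned reads with Bowtie 0.12.7, kept uniquely placed reads, and made raw counts per gene with HTSeq 0.4.7p4 in union mode against Ensembl release 61. The normalised table that the authors deposited from edgeR 2.4.0, of which fold and p-value columns were not used, supplied gene names alone (10093 of its 10653 genes had one). Members and gene lists were chosen with earlier results of these data known.

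Genes with more than 10 counts in all were fitted with edgeR 4.0.16 (R 4.3.3), TMM factors, quasi-likelihood test and Benjamini-Hochberg adjustment, without a block. Normalized counts are raw counts scaled to 19267327. Ratios are of summed counts over effective library sizes, and for 1 to 3 counts at the lower age have exact 95% intervals. The common biological coefficient of variation was 18.2%. Replicate numbers did not pair the samples (correlations of deviations -0.0192, -0.011 and -0.0607). Simulated data tested the script, and alternatives were other scalings, filters, DESeq2 1.42.0, limma 3.58.1, an exact test, a replicate block and leaving out each library. Genes were named by a rule on role, level and size of change, and the remaining members, with the marker genes singled out, after their values were seen. From each list, up to 6 other genes of highest mean above 100 were named. A few members are not reported here.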

Additional observations from a re-analysis of the deposited data

How the results depend on the processing

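Of all genes tested, 5773 were called at E15 and 4879 in the adult. With total counts alone they were 9799 and 2292, and with the 10 most abundant genes left out of the totals 3196 were called in the adult. The share of all calls that were higher at E15 was 54.2%, and 81%, 71.6% and 59.1% with total counts, without the 10 genes and with the upper quartile. Log2 fold changes that turned to E15 with total counts were those of RT1-M6-2 (0.06), C1qa (0.06), Ptprc (0.14), Nfkb1 (0.11), Nfkbib (0.16) and Irf8 (0.04). Leaving out 1 library gave 5009 to 6218 genes called at E15 and 4327 to 5449 in the adult, and 23 to 34 and 90 to 97 members. With a replicate block, which the numbers do not justify as pairing, 31 members were called at E15 and 92 in the adult, and 5320 and 4608 of all genes. DESeq2 called 34 and 96 members, limma-voom 33 and 97, filterByExpr 31 and 84 of fewer genes tested, and the exact test 41 and 105. Low counts limit 65 members, which had a mean of 100 normalized counts at neither age.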
